A study of Mus musculus with 112 samples.

Results

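The subject here is a set of 148 array probes whose signal was higher in the liver of tesaglitazar-treated mice and whose transcripts were also detected in brain. They were chosen from 45281 probes by measured values: 12195 probes had a detection p under 0.05 on all 75 brain arrays and on 9 saline liver arrays, and of these the 150 with the largest mean tesaglitazar minus saline difference in liver were taken. Of 3 probes that the rule leaves out by name, 2 were among the 150 (of the genes Acot3 and Pdk4). A single gene symbol could be given to 136 of the 148 probes, which stand for 102 genes; 12 probes have no gene name here. By the values of the rule, on quantile-normalised log2 signals, the members lay between 1.18 and 5.34 above saline. The last members inside were probes of Celf2 (1.20), Abcd2 (1.19) and Hsd17b7 (1.18), and the first probes outside were of Srxn1 (1.18), Igsf11 (1.18) and Aacs (1.17), so that the edge is not a gap.

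The mice were male C57BL/6J, dosed by mouth for 8 days with tesaglitazar at 1.5 mg/kg (an agonist of PPARα and PPARγ), fenofibrate at 150 mg/kg (PPARα), bezafibrate at 75 mg/kg (all PPAR subtypes) or saline, and the agonists were suspended in saline with Tween-80. Liver, prefrontal cortex and amygdala were measured on 112 Illumina bead arrays of whole tissue, at 9 or 10 arrays per group over 12 groups, a number that limits the precision. The 3 agonists were given at a single dose each and the doses differ, so that in every comparison between agonists the compound and its dose cannot be told apart.

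PPARs are nuclear receptors that bind fatty acids and, as partners of the retinoid X receptor, raise the transcription of genes for fatty acid uptake, oxidation and storage. PPARα is the main subtype of hepatocytes, where it governs the response to fasting, mitochondrial and peroxisomal β-oxidation and, in rodents, peroxisome proliferation. PPARγ is best known from adipocytes, where it drives lipid storage and lipid droplet genes.

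Detected probes made up 38.1 to 42.7% of each liver array, 44.0 to 49.8% of each prefrontal cortex array and 46.4 to 50.6% of each amygdala array. Albumin (Alb) was above background on 35 of 35 liver arrays and on 0 of 38 and 0 of 37 arrays of the brain regions, and the neuronal transporter gene Slc17a7 on every brain array and 0 of 35 liver arrays. Not every marker separated the tissues in this way. The hepatocyte markers Ttr and Apoa1 were detected on 37 and 34 of 38 prefrontal cortex arrays and on all 37 amygdala arrays. Among neuronal markers, a Syt1 probe was detected on 35 of 35 liver arrays, and Snap25 on 0 brain arrays. In liver, the library titled tesaglitazar 6 had a mean log2 level over the members of 8.64 and the library titled saline 4 one of 10.76, each inside the range of the other's group. Both were left out of the liver groups and fits (35 of 37 liver arrays remain), and counts with this pair as labelled are given beside them. They did enter the normalisation behind the mean levels over the members per array and behind the values of the rule. All 148 members were detected on all 35 liver arrays and passed the filter on low signals (detected on at least 9 arrays of the tissue) in every fit.

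PPARs bind a direct repeat of AGGTCA with a single base between the copies, so the promoters of the member genes were searched for AGGTCA, any base, AGGTCA on both strands. RefSeq windows (assembly GRCm38.p6) from 250 bases before to 50 bases after the gene start were given for 86 of the member genes, 116 windows in all. None held the exact repeat, which 13 of all 32851 windows hold (0.0396%). With up to 2 of the 12 set letters changed, a search chosen after the exact one, 3 of 116 member windows held a match (2.59%), against 3.86% of all windows. These matches are shown because they are the closest ones next to member genes, with bases that fit the repeat or lie between the copies in capitals and the changed letters in lower case:
Slc25a20: AGGTgAAAGGTCg
St3gal6: AtGTCAAAGGTaA
Hspe1: gGGTgAAAGGTCA
The window of Slc25a20, the carnitine-acylcarnitine carrier of the mitochondrial inner membrane, lies at chr9:108661886-108662185 on the plus strand, and is given whole with the match in capitals, since the gene is a member of the β-oxidation pathway described below:
Slc25a20 promoter: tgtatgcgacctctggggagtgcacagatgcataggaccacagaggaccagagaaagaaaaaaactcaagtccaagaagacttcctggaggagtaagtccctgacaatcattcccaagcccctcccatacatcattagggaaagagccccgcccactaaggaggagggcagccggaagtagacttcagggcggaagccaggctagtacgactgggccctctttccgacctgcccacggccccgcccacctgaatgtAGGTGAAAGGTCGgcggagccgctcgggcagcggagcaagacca
The other windows lie at chr16:58524204-58524503 on the minus strand (St3gal6, a sialyltransferase) and at chr1:55087898-55088197 on the plus strand (Hspe1, the mitochondrial co-chaperone). A match describes letters in this window only.

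Averaged over the 148 members, the log2 level per liver array was 10.69 ± 0.17 under tesaglitazar (SD, n = 8), 10.03 ± 0.16 under fenofibrate (n = 9), 8.88 ± 0.14 under bezafibrate (n = 9) and 8.65 ± 0.07 in saline (n = 9). The fenofibrate arrays spanned 9.77 to 10.3 and did not overlap the bezafibrate arrays (8.72 to 9.14). The tesaglitazar arrays spanned 10.4 to 10.8, but the members were chosen for high values on these arrays against saline. Their height is therefore largely set by the rule. In prefrontal cortex the same mean was 8.34 under tesaglitazar, 8.30 under fenofibrate, 8.33 under bezafibrate and 8.33 in saline. In amygdala it was 8.58 under tesaglitazar, 8.56 under fenofibrate, 8.59 under bezafibrate and 8.58 in saline. These are levels in whole tissue, in which fewer cells of a type and less RNA per cell cannot be told apart.

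In liver, fenofibrate was compared with bezafibrate, groups that the rule did not use to rank probes, over 19773 probes with limma. The saline and tesaglitazar arrays of the rule still entered the normalisation and the shared estimate of spread. Of the 148 members, 142 were higher under fenofibrate than under bezafibrate and 0 were lower (Benjamini-Hochberg adjusted p under 0.05), where 10.5% of all tested probes were higher. The median difference of the members was 1.04 on the log2 scale (2.06-fold), with a range of -0.43 to 3.37, against a median of -0.01 over all probes. At least 2-fold higher were 81 members, against 1.01% of all probes. In 101 members every fenofibrate array lay above every bezafibrate array, against 2.57% of all probes. Within the mice numbered 1 to 20 the count of higher members was 125 (median 0.93), where 4.39% of all probes were higher. Within those numbered 21 to 40 it was 135 (median 1.12), where 8.24% of all probes were higher. With the library pair as labelled, 134 members were higher (7.99% of 19984 probes). The pair is in neither compared group, but enters the normalisation, the probe filter and the shared estimate of spread. With only the fenofibrate and bezafibrate arrays fitted, 144 members were higher (10.8% of all probes).

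Against saline, the members' differences are descriptions, since the saline or tesaglitazar arrays that chose the members enter them. The 148 members were all higher under tesaglitazar, as the rule makes them (22.5% of all probes were called higher), with a median log2 difference of 1.77. Fenofibrate had 143 members higher than saline (14.7% of all probes), with a median of 1.22, and 98 of them at least 2-fold (1.5% of all probes). Bezafibrate had 28 members higher (1.54% of all probes), with a median of 0.21. With the library pair as labelled these counts were 148, 128 and 1, where 18.2%, 10.1% and 0.701% of all probes were higher. The members' bezafibrate median was then -0.0009, so the bezafibrate rise over saline depends on leaving the pair out. The size ran tesaglitazar, fenofibrate, bezafibrate in 140 of 148 members. Per member, the fenofibrate difference was a median 0.70 of the tesaglitazar difference on the log2 scale, and the bezafibrate difference 0.11 of it. The comparisons of tesaglitazar with the other agonists are descriptions too, since the members were chosen for high values on the same tesaglitazar arrays, which tilts these counts towards tesaglitazar. With that limit, 118 members were lower and 1 (Mfsd2a) was higher under fenofibrate than under tesaglitazar (12.7% and 11.9% of all probes), and 147 were higher under tesaglitazar than under bezafibrate (21.4%). With the pair as labelled the counts were 28, 1 and 146 (7.02%, 6.86% and 18.6% of all probes).

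Genes that bring fatty acids into the cell and activate or release them held some of the largest differences. Acot1, which cleaves fatty acyl-CoA in the cytosol, had log2 levels of 12.68 to 13.38 (median 13.22) under tesaglitazar, 11.08 to 12.57 (11.91) under fenofibrate, 7.69 to 9.48 (8.39) under bezafibrate and 7.02 to 7.55 (7.24) in saline. No bezafibrate array overlapped the saline arrays or the fenofibrate arrays. Acot1 was 10.3-fold higher under fenofibrate than under bezafibrate (log2 3.37 ± 0.19, SE, adjusted p = 8.15e-17), and its second member probe differed by 2.53. Acot1 has near-identical neighbours in its gene family, so that a probe may read more than 1 of them, and the size is uncertain in that sense.

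Lpl, the lipase that frees fatty acids from circulating triglyceride, is low in adult hepatocytes and high in fat and muscle. Its log2 levels were 12.75 to 13.75 (median 13.23) under tesaglitazar, 11.98 to 12.55 (12.20) under fenofibrate, 9.04 to 10.84 (9.99) under bezafibrate and 8.60 to 10.50 (9.59) in saline. The bezafibrate and saline arrays overlapped, and the fenofibrate arrays lay above both. Lpl was 4.87-fold higher under fenofibrate than under bezafibrate (log2 2.28 ± 0.19, adjusted p = 5.36e-12). Vldlr, the receptor that takes up triglyceride-rich lipoproteins, had levels of 9.65 to 10.85 (median 10.41) under tesaglitazar, 8.63 to 9.62 (9.10) under fenofibrate, 5.44 to 7.83 (6.87) under bezafibrate and 5.45 to 7.20 (6.04) in saline. Its 3 member probes lay 2.47 to 2.49 higher under fenofibrate than under bezafibrate. The tested Vldlr probes outside the members lay only 0.45 and 0.18 higher, so the size depends on the probe. Slc22a5, the plasma membrane carnitine transporter, was 2.87-fold higher under fenofibrate than under bezafibrate (log2 1.52 ± 0.13, adjusted p = 6.38e-12), and Acsl5, an acyl-CoA synthetase, differed by 0.72.

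Of the whole list on fatty acid uptake, binding and activation, 22 of 34 tested probes were higher and 1 was lower under fenofibrate than under bezafibrate, with a median log2 difference of 0.46. Outside the members, 16 of 28 probes of this list were higher, among them further probes of the member genes Slc22a5 and Acsl5.

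Mitochondrial β-oxidation was represented by 9 member probes of 7 genes, all higher under fenofibrate than under bezafibrate. Of all 148 members 142 were higher (10.5% of all probes), so the count within a list follows that of the members as a whole. Slc25a20, whose promoter is shown above, had log2 levels of 12.97 to 13.30 (median 13.20) under tesaglitazar, 12.65 to 13.01 (12.88) under fenofibrate, 11.25 to 12.17 (11.63) under bezafibrate and 11.30 to 11.80 (11.55) in saline. Fenofibrate and bezafibrate arrays did not overlap, and the difference was 2.30-fold (log2 1.20 ± 0.09, adjusted p = 2.13e-13). Cpt2, which rebuilds acyl-CoA inside the mitochondrion, was 1.84-fold higher (log2 0.88 ± 0.08, adjusted p = 1.1e-10). The long-chain dehydrogenase Acadl differed by 0.88 and 1.22 at its member probes, the medium-chain dehydrogenase Acadm by 0.73, the trifunctional protein subunit Hadhb by 0.96, and the enoyl-CoA isomerases Eci1 and Eci2 by 1.07 and 0.92. Acadm, the brightest of these, had a median log2 level of 14.40 under tesaglitazar, 14.01 under fenofibrate, 13.37 under bezafibrate and 13.12 in saline. In the whole list, 30 of 41 probes were higher and 0 lower (median 0.44), and outside the members 21 of 32 were higher. These include further probes of the member genes Cpt2 and Slc25a20.

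Peroxisomal genes gave 14 member probes of 10 genes, and all were higher under fenofibrate than under bezafibrate, as were 142 of all 148 members. The Acot3 probe that was left out by name also belongs to this list. Pex11a, which elongates and divides peroxisomes, had log2 levels of 12.38 to 13.29 (median 12.83) under tesaglitazar, 11.75 to 12.52 (12.09) under fenofibrate, 9.48 to 10.99 (10.15) under bezafibrate and 9.88 to 10.59 (10.12) in saline. Its 3 member probes differed by 1.79 to 1.92 between fenofibrate and bezafibrate (3.79-fold at the probe with the largest difference, adjusted p = 5.69e-13). Crat, carnitine acetyltransferase, was 4.96-fold higher (log2 2.31 ± 0.18, adjusted p = 1.91e-12). The ABC transporters that carry acyl-CoA into peroxisomes, Abcd2 and Abcd3, differed by 1.21 and by 1.20 and 1.40. The thioesterase Acot8 differed by 1.29 and 1.34, the reductase Decr2 by 0.97, the hydratase-isomerase family member Ech1 by 0.86, the membrane protein Pxmp4 by 0.86 and the thiolase Acaa1a by 0.80. In the whole list 38 of 53 probes were higher and 2 lower (median 0.59), and outside the members 24 of 39 were higher and 2 lower. The higher ones include further probes of the member genes Crat, Pex11a, Acot8, Abcd2, Abcd3 and Decr2, so they are not all of other genes.

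Lipid droplet genes, several of them known targets of PPARγ in fat, gave 8 member probes of 5 genes. Mgll, monoacylglycerol lipase, had log2 levels of 11.03 to 11.88 (median 11.21) under tesaglitazar, 10.09 to 10.89 (10.54) under fenofibrate, 7.92 to 9.41 (8.60) under bezafibrate and 7.82 to 8.75 (8.38) in saline. It was 3.99-fold higher under fenofibrate than under bezafibrate (adjusted p = 1.04e-13), and its other member probes differed by 1.92 and 1.95 on the log2 scale. Pnpla2, the adipose triglyceride lipase, differed by 0.61, its inhibitor G0s2 by 1.14, and Fitm2, which acts in droplet formation at the endoplasmic reticulum, by 1.05 and 1.08. Hsd17b11, a droplet-associated dehydrogenase outside the list, was 3.81-fold higher (log2 1.93 ± 0.16, adjusted p = 7e-12). Hilpda, another inhibitor of Pnpla2, did not pass (log2 0.27, 95% interval -0.12 to 0.67, adjusted p = 0.369), with levels of 7.08 to 9.21 (median 8.53) under tesaglitazar, 6.37 to 7.14 (6.65) under fenofibrate, 6.11 to 6.63 (6.48) under bezafibrate and 6.22 to 6.58 (6.32) in saline. In the whole list 20 of 35 probes were higher and 5 lower (median 0.49).

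Markers of other cells were read beside these groups. Of adipocyte genes on the array, Plin1 and Retn were above background on 0 of 35 liver arrays, Adipoq on 2, Fabp4 on 3 and Lep on 8. Cidea, which is also a droplet protein, was the only one of that list tested, and its linear signal was 269 to 3458 under tesaglitazar, 73 to 440 under fenofibrate, 19 to 29 under bezafibrate and 18 to 21 in saline. Of 12 hepatocyte marker probes, 6 were lower and 0 higher under fenofibrate than under bezafibrate, and their summed linear signal was 86965 to 98069 under tesaglitazar, 102072 to 113845 under fenofibrate, 125520 to 150821 under bezafibrate and 132224 to 144741 in saline. Of 12 Kupffer cell and macrophage probes 1 was lower and 0 were higher under fenofibrate than under bezafibrate. The part of these shifts in the members' differences was not tested.

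The remaining fixed lists held fewer members. The ω-oxidation and aldehyde list had 9 of 11 probes higher and 0 lower under fenofibrate than under bezafibrate, among them the fatty aldehyde dehydrogenase Aldh3a2, whose member probes differed by 1.57 (adjusted p = 7.95e-16) and 1.48. In the list on fatty acid synthesis and desaturation 12 of 26 were higher and 4 lower, with the desaturase Fads2 at 1.34 and the mitochondrial acetyl-CoA carboxylase Acacb at 0.90. In the tricarboxylic acid cycle and pyruvate list 14 of 40 were higher and 2 lower, and Me1, the cytosolic malic enzyme that makes NADPH, was 3.74-fold higher (log2 1.90 ± 0.22, adjusted p = 1.58e-08). The list on glycerol and glycolysis had 7 of 18 higher and 2 lower, with the mitochondrial glycerol phosphate dehydrogenase Gpd2 at 1.36. Ketogenesis held no member, and 4 of its 8 probes were higher and 0 lower.

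Complex I of the respiratory chain had 16 of 52 probes higher and 0 lower, and its members were the 3 probes of Ndufab1, the mitochondrial acyl carrier protein, which differed by 0.90 to 1.06. The other complexes had no member, with 22 of 49 higher and 0 lower. Among proteasome and ubiquitin probes 24 of 35 were higher and 0 lower, with the proteasome subunit Psmd4 at 0.60. Among glutathione and redox probes 12 of 42 were higher and 5 lower, with Gstt2 at 0.88, Srxn1 at 0.82 and the member probes of Mgst3 at 0.68 and 0.60. Of cell cycle probes 11 of 23 were higher and 1 lower, with the replication helicase subunit Mcm4 at 1.14. Sterol synthesis had 2 of 25 higher and 0 lower, with Hsd17b7 at 0.69, and chaperones 4 of 34 higher and 5 lower, with Hspe1 at 0.61. Of all probes in this comparison 10.5% were higher and 10.6% lower, so that the shares of sterol synthesis and chaperone probes that were higher lie near the background. Amino acid and one-carbon metabolism, which held no member, had 3 of 34 higher and 10 lower. In all, 54 member probes of 39 genes stood in these lists and 94 in none.

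Among the members outside the lists, Lamb3, a laminin chain of basement membranes, had log2 levels of 8.87 to 10.21 (median 9.67) under tesaglitazar, 7.53 to 9.42 (8.65) under fenofibrate, 4.98 to 7.41 (5.78) under bezafibrate and 4.94 to 5.36 (5.22) in saline. It was 5.91-fold higher under fenofibrate than under bezafibrate (log2 2.56 ± 0.24, adjusted p = 1.08e-10). Bhlhb9 was 4.71-fold higher (log2 2.24 ± 0.13, adjusted p = 8.53e-16), with levels of 10.11 to 11.01 under tesaglitazar, 9.27 to 10.01 under fenofibrate, 6.83 to 7.81 under bezafibrate and 6.21 to 7.21 in saline. Gal3st1, the sulfotransferase that makes sulfatide, was 4.45-fold higher (log2 2.15 ± 0.12, adjusted p = 1.91e-16). P2ry14, a receptor for UDP-sugars, had levels of 9.54 to 10.93 (median 10.67) under tesaglitazar, 7.48 to 9.35 (7.87) under fenofibrate, 6.20 to 6.76 (6.59) under bezafibrate and 6.19 to 6.87 (6.64) in saline. It was 2.76-fold higher under fenofibrate than under bezafibrate (adjusted p = 6.51e-08), and its bezafibrate and saline arrays covered nearly the same range.

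The 6 members that did not pass between fenofibrate and bezafibrate were Nupr1, Slc25a30, Mt1, Hilpda, Gadd45g and Ccnd1, named after their values were seen. Nupr1, a stress-induced chromatin protein, had log2 levels of 5.28 to 10.87 (median 9.73) under tesaglitazar, 5.14 to 7.05 (5.33) under fenofibrate, 5.12 to 5.75 (5.36) under bezafibrate and 5.27 to 5.79 (5.38) in saline. The tesaglitazar mice ran from the saline level to far above it, with an SD of 2.20, the widest among the members in that group, where the median SD was 0.24. Its difference between fenofibrate and bezafibrate was 0.09 (95% interval -0.87 to 1.05, adjusted p = 0.935). Gadd45g, a growth arrest and DNA damage response gene, had 8.81 to 10.93 (median 10.63) under tesaglitazar, 7.11 to 8.85 (7.69) under fenofibrate, 7.44 to 9.32 (8.09) under bezafibrate and 7.49 to 10.91 (8.61) in saline. Its saline arrays reached as high as its tesaglitazar arrays, and its fenofibrate median lay below the saline median. The difference between fenofibrate and bezafibrate was -0.43 (95% interval -1.22 to 0.36, adjusted p = 0.498). The metallothionein Mt1 differed by -0.20 (interval -0.91 to 0.50), cyclin D1 (Ccnd1) by 0.22 (interval -0.07 to 0.51), and the mitochondrial carrier Slc25a30 by 0.74 (interval 0.18 to 1.30, adjusted p = 0.0534). For Slc25a30 and Hilpda the call depends on the fit: Slc25a30 passed with median centring (adjusted p = 0.0363) and both passed where only the fenofibrate and bezafibrate arrays were fitted (adjusted p = 0.0250 and 0.0408).

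The agonists were ordered otherwise in a few members. Mfsd2a, a transporter of lysophosphatidylcholine and a fasting-induced liver gene, had log2 levels of 8.49 to 10.49 (median 9.24) under tesaglitazar, 10.52 to 11.39 (10.92) under fenofibrate, 7.98 to 10.37 (9.75) under bezafibrate and 6.05 to 9.68 (7.52) in saline. Every fenofibrate array lay above every array of the other groups, and the tesaglitazar and bezafibrate arrays overlapped. Mfsd2a was 2.76-fold higher under fenofibrate than under bezafibrate (log2 1.46 ± 0.33, adjusted p = 0.000838). Ppp1r3g, which targets protein phosphatase 1 to glycogen, had 7.67 to 9.86 (median 8.82) under tesaglitazar, 7.74 to 10.05 (8.74) under fenofibrate, 5.62 to 8.75 (7.76) under bezafibrate and 5.33 to 7.14 (6.66) in saline. Retsat, retinol saturase, had 13.87 to 14.18 (median 13.96) under tesaglitazar, 13.74 to 14.26 (14.06) under fenofibrate, 12.34 to 13.43 (12.79) under bezafibrate and 11.89 to 12.39 (11.97) in saline. Its tesaglitazar and fenofibrate arrays lay in the same range. As a share of the tesaglitazar difference from saline, the bezafibrate difference was largest in Mfsd2a (1.09), Ppp1r3g (0.57), Fam102a (0.49), Gstt2 (0.46) and Retsat (0.40 and 0.41). Among the members with a gene name it was lowest, below 0, in Gadd45g (-0.32), Paqr9 (-0.31 and -0.18), the long noncoding RNA Neat1 (-0.18), Slc25a30 (-0.15) and Pxmp4 (-0.15), and a member probe without a gene name lay at -0.21. Among the 28 members above saline under bezafibrate, 5 were at least 2-fold higher (0.126% of all probes), namely Mfsd2a (1.98 on the log2 scale), Ppp1r3g (1.48), both Acot1 probes (1.24 and 1.16) and Hsd17b11 (1.20).

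Several genes carried more than 1 probe. Among the 29 genes with 2 or 3 member probes, the largest gap between probes in the fenofibrate minus bezafibrate difference was 0.84 (Acot1) and the median gap 0.08. A further 70 tested probes of 51 member genes were no members, and of these 48 were higher and 3 lower under fenofibrate than under bezafibrate. The 3 lower ones were all probes of Ctsa, the lysosomal carboxypeptidase (log2 -0.66, -0.30 and -0.27), whereas its member probe was 1.64 higher, so the array gives no single direction for Ctsa. Angptl4, a secreted inhibitor of Lpl, was 0.70 higher at its member probe (adjusted p = 0.000313) and 0.0029 at its other probe (adjusted p = 0.989), and P2ry14 was 0.11 at its probe outside the members (adjusted p = 0.600).

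In brain, tesaglitazar against saline had 0 of 148 members called in prefrontal cortex and 0 in amygdala, where 0% of all 23079 and 23803 probes were called by limma; at an unadjusted p under 0.05 there were 7 and 13 members and 1495 and 1513 probes. The prefrontal cortex values depend on the scaling: with median centring, which moved the median of all probes to 0.11, the unadjusted counts were 40 members and 4144 probes, and 136 members lay above 0, against 78 with quantile normalisation. None of the 148 passed the adjusted threshold there (0.0607% of all probes did). In prefrontal cortex the members' log2 differences spanned -0.24 to 0.27, and in amygdala they spanned -0.54 to 0.51. The lowest adjusted p values were 0.388 (Abcc4, an exporter of cyclic nucleotides and other anions) and 0.433 (Nt5e, which makes adenosine at the cell surface). Acot1, the member with the largest liver difference, had log2 levels of 5.61 to 6.02 (median 5.89) under tesaglitazar and 5.72 to 6.30 (5.95) in saline in prefrontal cortex. The difference between the brain regions in the tesaglitazar response was called for 0 members, where 0% of all probes were called (8 members and 1142 of 25460 probes at an unadjusted p under 0.05). With median centring it was again 0 members and 0% of all probes, while the counts without adjustment were 42 members and 4355 probes and the median of all probes was 0.14.

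Fenofibrate in prefrontal cortex had 1 member higher and 4 lower than saline, where 2.55% and 3.43% of all probes were called. Both member counts are smaller shares than these, so the calls mark no excess among the members. Lpcat3, which puts polyunsaturated fatty acids into phospholipids, had log2 levels of 7.78 to 8.12 (median 7.98) under fenofibrate and 8.05 to 8.58 (8.23) in saline, a difference of -0.26 ± 0.06 (adjusted p = 0.00634). The arrays overlapped only at the edge of both ranges. The fatty acid elongation enzyme Hsd17b12 differed by -0.29, Acot1 by -0.27, Retsat by -0.26 and Lgals4, a galectin, by 0.26 (adjusted p between 0.0219 and 0.0468). In liver all of these genes lay above saline under fenofibrate, by 0.86 for Lpcat3 and 4.61 for Acot1 at the same probes. In prefrontal cortex, the second member probes of Lpcat3, Acot1, Retsat and Lgals4 were not called under any setting, so these calls rest on single probes. For Acot1 the uncalled probe was the brighter, at 8.88 against 5.86 in saline prefrontal cortex with all tissues normalised together. With median centring only Lgals4 passed (2.7% of all probes), within the mice numbered 1 to 20 only Lpcat3 and Acot8 (1.1%), and within those numbered 21 to 40 none (0.234%). Fenofibrate in amygdala and bezafibrate in both regions had 0 members called, where 0%, 0.013% (prefrontal cortex, bezafibrate) and 0% of all probes were called; at an unadjusted p under 0.05 there were 10, 2 and 6 members, and 2064, 983 and 1216 of all probes.

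The difference between fenofibrate and bezafibrate was itself larger in liver than in the mean of both brain regions for 142 members (7.57% of all 27635 probes), and smaller for 0, with a median log2 difference of differences of 0.93. It was 2.92 for Acot1, 2.33 for Lpl, 2.27 for Lamb3 and 1.71 for Mgll. Pairing tissues by mouse number, as a replicate block, gave 143, and with the library pair as labelled 140 (7.82% and 6.74% of all probes). Liver and brain arrays were normalised together for this test, which makes the sizes approximate.

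The members differed widely in how liver and brain compare at the start. On arrays of all tissues normalised together, 49 members had a lower level in saline liver than in the mean of saline brain, against 5324 of the 12195 probes from which the members came. Under tesaglitazar, 17 members had a liver level below that saline brain mean (5346 of the 12195 probes), and 32 had crossed it (576 of the 12195 probes). The crossing rests on the tesaglitazar difference by which the members were chosen. Enc1, an actin-binding protein first known from neurons, was lowest in liver relative to brain, at a log2 level of 8.62 in tesaglitazar liver and 6.30 in saline liver, against 12.55 in saline prefrontal cortex and 12.57 in saline amygdala. Pmm1, a phosphomannomutase, stood at 8.83 in tesaglitazar liver and 5.48 in saline liver, against 9.75 in saline prefrontal cortex and 9.67 in saline amygdala. Rcan2, a calcineurin regulator, stood at 8.41 in tesaglitazar liver and 6.07 in saline liver, against 10.50 in saline prefrontal cortex and 9.67 in saline amygdala. Vldlr, at 10.64 in tesaglitazar liver and 6.84 in saline liver, crossed its levels of 10.04 in saline prefrontal cortex and 10.26 in saline amygdala. Retsat stood at the other end, at 13.76 in tesaglitazar liver and 12.11 in saline liver, against 6.70 in saline prefrontal cortex and 6.74 in saline amygdala. Normalising unlike tissues together makes these levels approximate, and they were not tested.

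Between the brain regions of saline mice, 35 members were higher and 36 lower in prefrontal cortex than in amygdala, where 20% and 20.3% of all probes were called. This split depends on the scaling: with median centring it was 15 higher and 93 lower, where 7.58% and 43.6% of all probes were called and the median of all probes was -0.18. With the deposited normalised values it was 18 and 109, where 4.32% and 79.8% of all probes were called, so that the members' split moved with that of all probes. Of members named after their values were seen, the 3 probes of Mgll were higher in prefrontal cortex by 0.86 to 1.56, Abcd2 by 1.02 and Ppp1r3g by 0.96, while Lamb3 and Lpl were lower by a log2 difference of -1.63 and -1.31. These kept their direction and passed in all 7 settings.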

How the data were processed

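The deposited table holds linear intensity per probe, not normalised per the file headers and values, and beside each array a deposited detection p-value per probe. A second deposited table gives normalised log2 values, with identical quantiles within each tissue, of the same arrays; it was used only as an alternative. The submitters' processing notes name lumi, without a version in the sources used here. Columns were matched to samples by title, and 8 columns of arrays with no matching title were left unused. Probes were named from the platform annotation, updated through RefSeq's mouse table: 34885 have 1 gene symbol, 18 several and 10378 are unlisted.

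With R 4.3.3 and limma 3.58.1, background was removed by the neqc method of limma, which can use detection p-values (offset 16, which understates fold changes of dim probes). For comparisons within a tissue, intensities were quantile normalised over the arrays of that tissue, and log2 was taken. Probes detected (p under 0.05) on 9 or more arrays of a tissue were tested with lmFit and eBayes over all 4 treatments, two-sided, with Benjamini-Hochberg adjustment over all probes at 0.05. These p-values measure the spread between mice, and the code was tested on simulated data. For liver against brain, normalisation, filter and fit instead took the arrays of all tissues together, and for the brain regions the arrays of both regions. In those fits the tissues of a mouse were treated as independent, except under the replicate block by mouse number.

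The members, gene lists and tests were chosen with earlier results of these data known. Genes were named by rule: the 12 with the largest rule value, the 8 with the largest fenofibrate minus bezafibrate rise (no fall was called), at most 5 each way called in a brain comparison, members of the lists, the edge of the rule, and the 5 largest and 5 smallest bezafibrate to tesaglitazar ratios. Other genes (among them Ctsa, Angptl4, Enc1, Pmm1, Rcan2, Abcc4 and Nt5e) were named after their values were seen, and St3gal6 for its promoter match.

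Titles carry mouse numbers 1 to 40, and equal numbers were taken as the same mouse. Deviations from group means correlated at a median of 0.0539 over 35 pairs of liver and prefrontal cortex, 0.0190 over 32 of liver and amygdala and 0.0736 over 35 of the brain regions, against -0.00450, -0.000241 and -0.00261 for different numbers. The alternatives tried were the pair of libraries as labelled, no background correction, median centring, testing every probe, trended and robust eBayes, the deposited normalised values, fitting the compared groups alone, a block for the numbering part or fits within it, a replicate block by mouse number, and leaving out the named probes before the 150 were taken.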

Additional observations from a re-analysis of the deposited data

Results flagged for a closer look

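For 142 of 148 members the fenofibrate minus bezafibrate difference was larger in liver than in brain by the interaction test, against 7.57% of all 27635 probes. The members were chosen for a treatment difference in liver, which limits the weight of this count. Among the 8 genes with the largest liver difference, the excess of liver over brain on the log2 scale was 2.92 for Acot1, 2.33 for Lpl, 2.27 for Lamb3, 2.27 for Vldlr, 2.06 for Crat, 2.01 for Bhlhb9, 1.99 for Gal3st1 and 1.71 for Mgll.

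A single array stood apart from the rest of its group in 10 of 252 combinations examined, where chance alone gives about 1 in 20. The combinations were the named probes in each liver group and the mean of the members in each of the 12 groups of all tissues. All 10 were probes in liver. The library fenofibrate 37 accounts for 4 of them: its log2 level was 9.35 for P2ry14 (other fenofibrate arrays 7.48 to 8.19), 10.19 for Mgst3 (8.98 to 9.58), 7.14 for Hilpda (6.37 to 6.75) and 7.05 for Nupr1 (5.14 to 5.48). Bezafibrate arrays stood low for Lpcat3 (mouse 15, 10.69, others 10.94 to 11.15), Ndufab1 (mouse 13, 10.17, others 10.68 to 11.02), Psmd4 (mouse 12, 11.10, others 11.42 to 11.71) and Ppp1r3g (mouse 31, 5.62, others 7.26 to 8.75). Saline mouse 2 stood high for Vldlr (7.20, others 5.45 to 6.23), and saline mouse 22 low for Lgals4 (6.71, others 7.21 to 7.58).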

How the results depend on the processing

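Of the counts of members recomputed under each alternative, 121 stayed within 1.5 times the count reported and 13 did not. The count higher under fenofibrate than under bezafibrate in liver ran from 125 to 144 over all alternatives. The share of all probes that was higher ran from 4.07% to 11.6%. Bezafibrate against saline in liver (28 called) gave 1 with the library pair as labelled, 12 within mice 1 to 20 and 5 within mice 21 to 40. Of all probes, 1.43%, 1.35% and 0.329% were called there. Fenofibrate against tesaglitazar (119 called) gave 29 with the pair as labelled, where 13.9% of all probes were called. Fenofibrate against saline in prefrontal cortex (5 called, where 5.98% of all probes were) gave 1 with median centring and 2 with only those groups fitted. It gave 2 within mice 1 to 20 and 0 within mice 21 to 40. Amygdala comparisons with 0 calls gave calls within 1 numbering part: 7 for tesaglitazar within mice 21 to 40, where 4.11% of all probes were called (Pex11a and Gpd2 lower, Pnpla2, Hsd17b12, Clstn3 and Retsat higher), 3 for fenofibrate within mice 1 to 20, where 5.71% were called (Gpd2 and Vldlr higher, Hsd17b12 lower) and 3 for bezafibrate within mice 1 to 20, where 3.42% were called (Gpd2 and Vldlr higher), so that these member calls lie near or below the shares of all probes. Prefrontal cortex against amygdala in saline (71 called) gave 108 with median centring and 127 with the deposited normalised values. Under a replicate block by mouse number these interaction and region counts were 143, 0 and 73, and the block changed no other call, as it was fitted only there. Leaving out the named probes first gave 150 members, 144 of them higher under fenofibrate than under bezafibrate. In the fenofibrate minus bezafibrate difference, the sign turned within mice 1 to 20 for Nupr1 (-0.00350) and Mt1 (0.25), neither of which passed there. Why these values moved was not tested, beyond the smaller number of arrays within a numbering part. Members near background in brain are limited by signal over background, and the offset shrinks their differences.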
